A study of Mus musculus with 16 samples.

Results

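The R-spondin, Lgr and Lrp5/6 genes comprised 9 members among 26180 mouse genes with a curated RefSeq transcript: the ligands Rspo1, Rspo2, Rspo3 and Rspo4, the receptors Lgr4, Lgr5 and Lgr6, and the co-receptors Lrp5 and Lrp6. They were chosen by name, and the peaks of all 6 deposited lists were read within 2500 bp on each side of their start sites (5001 bases) and over the rest of their bodies. R1 mouse embryonic stem cells (ESCs) carried MycER, a Myc protein fused to the hormone-binding part of the estrogen receptor and switched on by 4-hydroxytamoxifen (OHT). LIF-ESCs received LIF, the cytokine that sustains self-renewal, at 100 units per ml and no OHT. Myc-ESCs received 50 nM OHT and no LIF, so LIF and Myc activity changed together and cannot be told apart. Both cultures carried the MycER transgene, and the study describes its MycER lines as single clones. Chromatin was immunoprecipitated for H3K4me3, H3K27me3 and Suz12 and sequenced, with 2 libraries per culture and antibody and 4 inputs, 16 in all.

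R-spondins are secreted proteins that strengthen Wnt signalling. They bind the receptors Lgr4, Lgr5 or Lgr6 together with the membrane ubiquitin ligases Znrf3 and Rnf43, which would otherwise remove Frizzled receptors and the co-receptors Lrp5 and Lrp6 from the cell surface. H3K4me3 marks active and poised start sites, whereas H3K27me3 is laid down by the Polycomb complex PRC2, of which Suz12 is a core subunit. Start sites with both histone marks are called bivalent and are common at developmental genes in ESCs.

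Each culture and antibody gave 1 list of peaks, so no difference between LIF-ESCs and Myc-ESCs could be set against the spread between libraries and no test was possible. The lists held no read counts and the depth behind them is unknown. H3K27me3 had by far the most unequal pair of lists, with 3120 peaks in LIF-ESCs against 16717 in Myc-ESCs. A count of genes is therefore read against the share of all genes with the same call. The score of a peak is −10 times the log10 of its p-value, starts at 50, and grows with depth as well as enrichment. Scores are printed to show how far a peak lay above that limit, and a difference in score between the cultures is not read as a difference in level. At the start sites of 8 ESC marker genes, 7 carried H3K4me3 without H3K27me3 or Suz12 in LIF-ESCs, all but Esrrb, which had Suz12. In Myc-ESCs 6 did, since Klf4 had Suz12 as well. Of 12 markers of other cell types, 2 did so in LIF-ESCs (Col1a1 and Thy1) and 1 in Myc-ESCs (Col1a1). Over all 26180 genes, 13220 did so in LIF-ESCs, and the Myc-ESC share was not counted.

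The sequences before the start sites differed in CpG dinucleotides, in which H3K4me3 and Polycomb start sites of ESCs are typically rich. The RefSeq promoter table for GRCm38.p6 held 4 of the 9 genes. Their 250 bases before the start site are printed 5′ to 3′ on the strand of the gene with every CG in capitals, to set Rspo1, which carried Suz12 in both cultures, beside Lgr6, which carried it in Myc-ESCs, and beside Rspo4 and Lgr4, which carried H3K4me3 alone.
Rspo1 promoter, chr4:124986180-124986429, plus strand: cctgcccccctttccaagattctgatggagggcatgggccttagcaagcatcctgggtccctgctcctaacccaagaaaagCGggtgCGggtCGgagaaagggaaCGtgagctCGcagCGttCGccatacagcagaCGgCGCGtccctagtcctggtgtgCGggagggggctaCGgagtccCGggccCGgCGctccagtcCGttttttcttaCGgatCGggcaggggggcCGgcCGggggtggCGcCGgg
Rspo4 promoter, chr2:151842677-151842926, plus strand: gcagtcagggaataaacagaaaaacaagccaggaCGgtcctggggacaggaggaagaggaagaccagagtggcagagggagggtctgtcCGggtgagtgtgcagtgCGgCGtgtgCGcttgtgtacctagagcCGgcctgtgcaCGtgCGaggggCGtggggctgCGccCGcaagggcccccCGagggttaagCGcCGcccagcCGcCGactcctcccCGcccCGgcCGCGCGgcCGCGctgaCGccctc
Lgr4 promoter, chr2:109917397-109917646, plus strand: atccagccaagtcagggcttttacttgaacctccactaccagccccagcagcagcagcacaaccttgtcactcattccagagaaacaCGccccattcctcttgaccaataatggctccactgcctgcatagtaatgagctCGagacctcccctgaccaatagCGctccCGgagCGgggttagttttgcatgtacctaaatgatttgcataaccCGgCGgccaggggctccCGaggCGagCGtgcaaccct
Lgr6 promoter, chr1:135105277-135105526, minus strand: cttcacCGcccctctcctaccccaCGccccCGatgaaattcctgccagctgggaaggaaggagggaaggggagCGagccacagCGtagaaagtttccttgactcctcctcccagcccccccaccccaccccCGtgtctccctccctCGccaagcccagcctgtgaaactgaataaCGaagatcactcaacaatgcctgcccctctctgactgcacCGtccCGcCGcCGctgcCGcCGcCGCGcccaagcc

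These stretches held 22 CpGs at Rspo1, 24 at Rspo4, 10 at Lgr4 and 16 at Lgr6. Both the richest and the poorest of the 4 thus belonged to genes with H3K4me3 alone. In the 1001 bases centred on the start site, read from the genome for all 9 genes, the GC content ran from 57.6% at Rspo2 to 77.3% at Lrp6, all above the median of 54.4% over all genes. The CpG count ran from 53 at Rspo3 to 151 at Lrp6, against a median of 37 over all genes and 60 over genes with H3K4me3. The ratio of observed to expected CpG was lowest at Lgr5 (0.569) and highest at Lrp6 (1.02), with a median of 0.512 over all genes. The 6-base E-box CACGTG, which Myc with its partner Max can bind and which reads the same on both strands, occurred once in the 300-base promoter of Rspo4, from base −108 to −103, and not in those of Rspo1, Lgr4 or Lgr6. It was present in 7.15% of the 32817 promoters in the table. The motif CTTTGAT, bound by the Tcf/Lef factors of the Wnt pathway and searched on both strands, was in none of the 4 promoters and in 3.73% of all.

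H3K4me3 covered the start sites of 8 of 9 genes in LIF-ESCs and 9 of 9 in Myc-ESCs, where 62.2% and 63.3% of all genes had it. In LIF-ESCs H3K27me3 was called at 0 of the genes, and Myc-ESCs had it at 3 (Rspo1, Rspo2 and Lgr5), where 3.82% and 10.7% of all genes had it. Suz12 was called at 4 in LIF-ESCs (Rspo1, Rspo2, Rspo3 and Lgr5), and Myc-ESCs had 5 when Lgr6 was added, with 12.1% and 14.6% of all genes. No call at a start site of the set was lost, and marks in LIF-ESCs alone were found at 1.21%, 0.733% and 1.28% of all genes for H3K4me3, H3K27me3 and Suz12. Marks in Myc-ESCs alone were found at Rspo3 for H3K4me3 (2.35% of all genes), at the 3 genes above for H3K27me3 (7.65%) and at Lgr6 for Suz12 (3.81%).

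**Figure D1:**
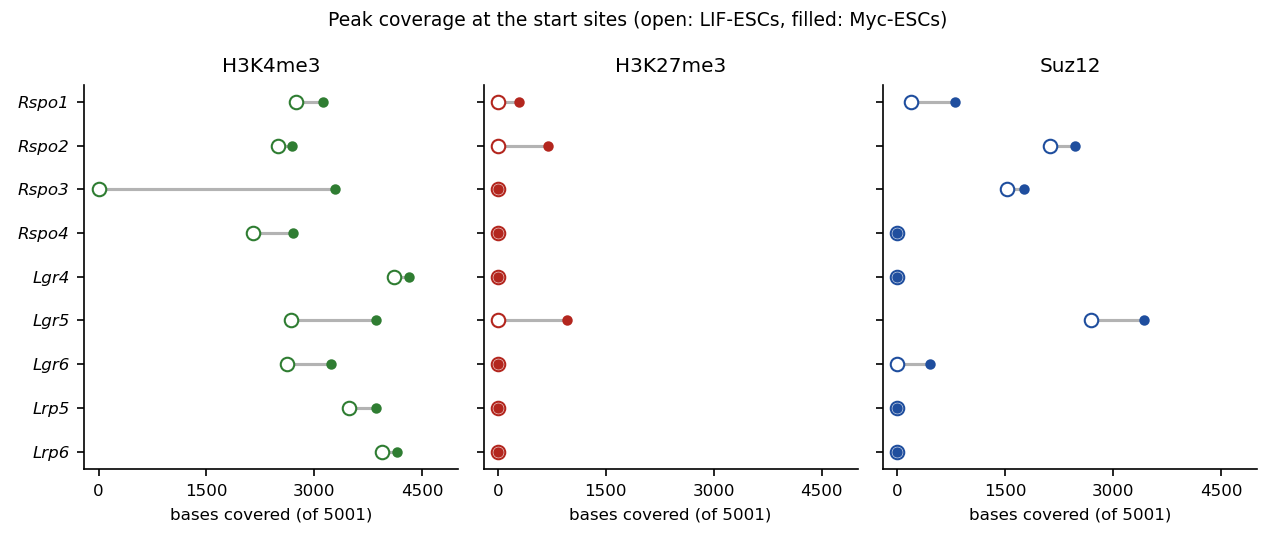
Bases covered by peaks (horizontal axis, of 5001) at the start site of each of the 9 genes, 1 panel per antibody, with LIF-ESCs as open and Myc-ESCs as filled circles and a grey line joining them; each circle is 1 list with no replicate error. H3K4me3 at Rspo3 goes from 0 to 3285 bases, and H3K27me3 reaches 288, 694 and 960 bases at Rspo1, Rspo2 and Lgr5 in Myc-ESCs.

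Among the ligands, Rspo1 (gene ID 192199, chr4:124986401-125009102 in GRCm38, plus strand, 6 exons) had H3K4me3 over 2741 bases in LIF-ESCs, and over 3120 in Myc-ESCs. Suz12 went from 1 peak of 191 bases to 3 peaks of 801 bases in all. The LIF-ESC Suz12 peak had a score of 56.25, just above the lower end of the list, and the highest Myc-ESC peak had 102.67. Of the 2 H3K27me3 peaks in Myc-ESCs, the one in intron 1 (bases 775 to 927 from the start site) overlapped a Suz12 peak (676 to 938). The other lay upstream, outside the Suz12 peaks and inside the H3K4me3 peak. LIF-ESCs had an H3K27me3 peak of 145 bases in intron 1 whose nearest base lay 2891 bp from the start site, just beyond the window, with a score of 59.47 and no Myc-ESC peak over it. H3K27me3 was thus called close to Rspo1 in both cultures, at different places. The predicted gene Gm12930 on the minus strand overlaps the window of Rspo1, and the peaks do not tell the genes apart.

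Rspo2 (gene ID 239405, chr15:43020788-43171594, minus strand, 6 exons) carried the broader Suz12 domain of the pair. Suz12 covered 2125 bases in 3 peaks in LIF-ESCs but 2469 bases in 4 peaks in Myc-ESCs, reaching from upstream into intron 2. H3K4me3 covered 2494 and 2684 bases, over exons 1 and 2. Myc-ESCs had 4 H3K27me3 peaks of 694 bases in all, of which 1 lay upstream of the Suz12 domain and 3 overlapped it in exon 2 and intron 2. Their highest score was 88.29.

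Rspo3 (gene ID 72780, chr10:29453106-29535867, minus strand, 5 exons) stood apart from the other 8 genes, since it had Suz12 but no H3K4me3 in LIF-ESCs. Suz12 covered 1523 bases of the window in LIF-ESCs and 1755 in Myc-ESCs, in 3 peaks each. The longest lay in intron 1 in both cultures. H3K4me3 appeared in Myc-ESCs as 2 adjoining peaks over 3285 bases of the window, with scores of 85.08 and 70.57. Those were the lowest scores of any H3K4me3 peak at these start sites, where the others ran from 355.54 upwards. Of the 148 genes with Suz12 alone in LIF-ESCs, 109 had H3K4me3 in Myc-ESCs, a share of 73.6%. Rspo3 had no H3K27me3 peak at its start site or over its body in either culture.

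Rspo4 (gene ID 228770, chr2:151842647-151874668, plus strand, 5 exons) was the ligand without Polycomb marks. H3K4me3 covered 2153 bases in LIF-ESCs but 2697 in Myc-ESCs, in a single peak that held the start site. The 4 ligands therefore fell into 3 patterns in LIF-ESCs: H3K4me3 with Suz12 (Rspo1, Rspo2), Suz12 alone (Rspo3) and H3K4me3 alone (Rspo4).

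Among the receptors, Lgr5 (gene ID 14160, chr10:115450314-115587780, minus strand, 18 exons) is known as a marker of cycling stem cells in gut and skin. Like Rspo1 and Rspo2, Lgr5 differed between the cultures in the bases covered by all 3 marks. H3K4me3 covered 2682 bases in LIF-ESCs and 3852 in Myc-ESCs, a difference of 1170 bases and the largest of the 8 genes marked in both cultures. Suz12 covered 2692 and 3429 bases. In LIF-ESCs it was split into 3 peaks, the longest of 1901 bases, and in Myc-ESCs a single peak of 3176 bases held the start site, flanked by 2 short ones. H3K27me3 covered 0 and 960 bases, with 6 peaks in Myc-ESCs of which 4 lay upstream and 2 in intron 1. A further 4 H3K27me3 peaks (696 bases) followed in intron 1 beyond the window, from 3.2 kb on, in Myc-ESCs only.

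Lgr6 (gene ID 329252, chr1:134983300-135105374, minus strand, 18 exons) had H3K4me3 over 2616 and 3235 bases. Suz12 covered 0 bases in LIF-ESCs but 456 in Myc-ESCs, in 2 peaks of intron 1 with scores of 97.35 and 65.68, whereas the nearest LIF-ESC Suz12 peak was 395488 bp away. Of 13220 genes with H3K4me3 alone in LIF-ESCs, 6.62% had Suz12 in Myc-ESCs, and Lgr6 was the only such gene among the 5 of this set. No H3K27me3 was called at Lgr6. Lgr4 (gene ID 107515, chr2:109917647-110014257, plus strand, 18 exons), the most widely expressed of the 3 receptors across tissues, had the broadest H3K4me3 of the 9 genes, with 4102 and 4315 bases, and neither Polycomb mark.

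The co-receptors Lrp5 (gene ID 16973, chr19:3584825-3686585, minus strand, 23 exons) and Lrp6 (gene ID 16974, chr6:134446476-134566913, minus strand, 23 exons) both carried H3K4me3 alone. At Lrp5 it covered 3477 bases in LIF-ESCs, and 3853 when Myc replaced LIF. At Lrp6 the values were 3938 and 4143 bases. The predicted gene Gm36672 starts within the same window as Lrp5 on the plus strand. For the 4 genes without Polycomb marks at the start site (Rspo4, Lgr4, Lrp5 and Lrp6), the nearest H3K27me3 or Suz12 peak of any list lay 138396, 221291, 78672 and 226187 bp from the start site, in this order. They were thus far from any called Polycomb peak in both cultures.

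Sequences are shown for a few peaks of H3K27me3 or Suz12 at start sites where that mark was called in Myc-ESCs only. They are printed 5′ to 3′ on the strand of the gene with CG in capitals. Rspo1 and Lgr5 carried Suz12 in both cultures. For H3K27me3 the peaks shown are the one in intron 1 of Rspo1 and the one with the highest score at the start site of Lgr5, which lay upstream. Both overlapped a Myc-ESC Suz12 peak.
Rspo1 intron 1 H3K27me3 peak, chr4:124987205-124987357, plus strand: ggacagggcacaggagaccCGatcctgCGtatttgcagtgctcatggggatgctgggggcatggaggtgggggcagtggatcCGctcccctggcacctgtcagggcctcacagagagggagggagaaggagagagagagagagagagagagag
Lgr5 upstream H3K27me3 peak, chr10:115589250-115589465, minus strand: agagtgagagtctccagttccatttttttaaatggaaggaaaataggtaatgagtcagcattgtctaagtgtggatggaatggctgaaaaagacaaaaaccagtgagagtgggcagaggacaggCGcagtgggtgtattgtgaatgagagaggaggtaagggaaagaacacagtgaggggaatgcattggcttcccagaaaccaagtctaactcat
These stretches held 3 CpGs in 153 bases at Rspo1 and 1 CpG in 216 bases at Lgr5. For Suz12 they are the peaks in intron 1 of Lgr6, of 287 and 169 bases.
Lgr6 Suz12 peak nearer to the start site, chr1:135104640-135104926, minus strand: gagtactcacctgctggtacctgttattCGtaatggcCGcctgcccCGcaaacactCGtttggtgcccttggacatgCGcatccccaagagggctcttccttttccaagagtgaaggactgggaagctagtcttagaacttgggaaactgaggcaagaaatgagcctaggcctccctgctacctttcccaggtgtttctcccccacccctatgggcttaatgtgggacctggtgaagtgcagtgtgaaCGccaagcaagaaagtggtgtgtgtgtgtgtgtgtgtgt
Lgr6 Suz12 peak farther from the start site, chr1:135104248-135104416, minus strand: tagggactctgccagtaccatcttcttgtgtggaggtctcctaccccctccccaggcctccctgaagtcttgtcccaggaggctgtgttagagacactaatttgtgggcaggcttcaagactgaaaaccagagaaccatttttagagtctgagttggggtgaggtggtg
They held 6 CpGs and 0 CpGs. The GC content was 62.7% and 44.4% in the H3K27me3 peaks and 53.7% and 52.7% in the Suz12 peaks. Only the peak in intron 1 of Rspo1, among these 4, exceeded the lowest value of 57.6% found for the 1001 bases around the 9 start sites.

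In all, the 12 H3K27me3 peaks at the 3 start sites in Myc-ESCs were 129 to 218 bp long, with scores from 53.54 to 88.77. Of these, 8 overlapped a Myc-ESC Suz12 peak and 7 a Myc-ESC H3K4me3 peak. The 4 without Suz12 all lay upstream of a start site, 1 at Rspo1, 1 at Rspo2 and 2 at Lgr5. Among the 2180 genes that carried H3K4me3 and Suz12 without H3K27me3 in LIF-ESCs, 58.5% had H3K27me3 in Myc-ESCs, and so did 3 of 3 here. When only peaks scoring 100 or more were kept, or with the Myc-ESC list cut to the length of the LIF-ESC list, H3K27me3 was called at 0 of the 9 genes. The limit of 100 also removed the H3K4me3 call of Rspo3, the Suz12 call of Lgr6 and the LIF-ESC Suz12 call of Rspo1.

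Within 2500 bp of the start sites, H3K4me3 covered more bases in Myc-ESCs at 8 of 8 genes marked in both cultures, by 190 to 1170 with a median of 377.5, where 65% of 15958 genes covered more and the median difference was 142. This depended on the window. Within 5000 bp the order turned at Lgr4 (8675 bases in LIF-ESCs, 8412 in Myc-ESCs) and at Lgr6 (4846 and 3235), and within 1000 bp the cultures were equal at 6 of 8 genes, where H3K4me3 filled the window. Suz12 covered more at 4 of 4 genes, by 232 to 737 with a median of 477, where 81.4% of 2822 genes covered more and the median was 502. The Suz12 differences of the 4 genes thus lay around that of all genes.

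**Figure D2:**
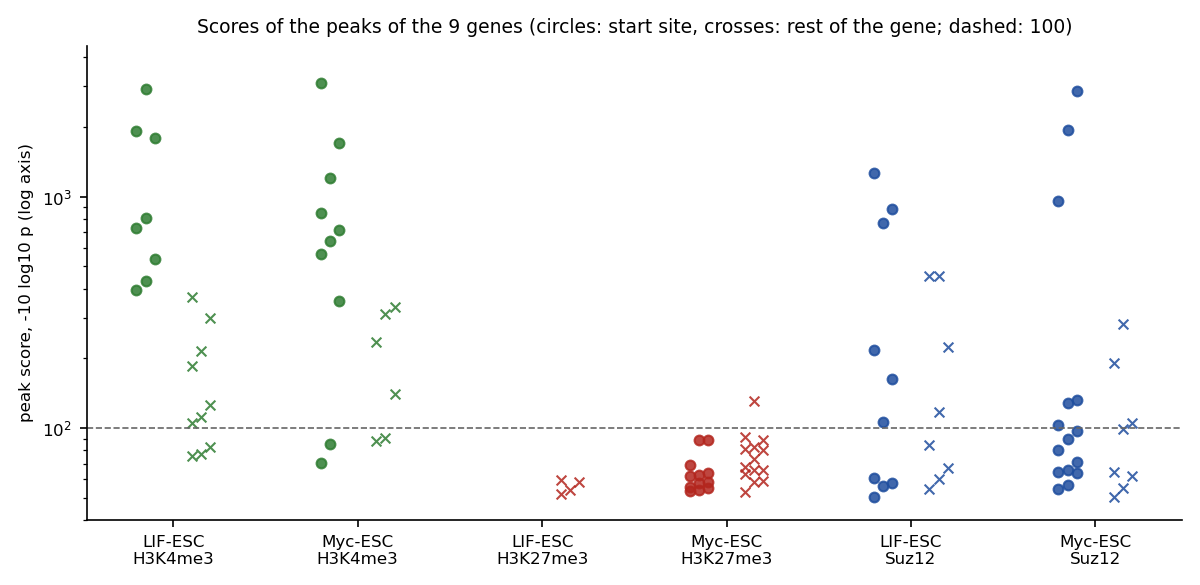
Score of each peak of the 9 genes (vertical log axis, −10 log10 p) in the 6 lists, with circles for peaks at the start site, crosses for peaks over the rest of the gene and a dashed line at 100. The 12 H3K27me3 circles in Myc-ESCs lie between 53.54 and 88.77, all below the line, whereas the 8 H3K4me3 circles in LIF-ESCs start at 394.51.

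Over the bodies outside the windows, H3K4me3 was found at 5 of 9 genes in each culture (22.4% and 20% of all genes). These shares are over genes of any length, and a longer body has more room for a peak. The 9 genes were 22.7 to 150.8 kb long, and length was not matched. LIF-ESCs had 10 H3K4me3 peaks outside the windows and Myc-ESCs 6. Lrp6 accounted for 3 of these in LIF-ESCs, in introns 1, 2 and 3 with scores of 111.78, 75.44 and 367.34, and had 0 in Myc-ESCs. Lgr4 had 3 in intron 1 in LIF-ESCs and 1 in Myc-ESCs. Outside the windows H3K4me3 thus covered 5642 bases in LIF-ESCs but 0 in Myc-ESCs at Lrp6, and 7092 but 2370 at Lgr4. The peak over the start site of Lgr4 was also longer in LIF-ESCs (6557 bp, against 6234 bp), and that of Lrp6 was shorter (3944 bp, against 4143 bp).

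H3K4me3 peaks within the other bodies, outside the windows, were as many or more in Myc-ESCs. Rspo1 had a peak of 1146 bp in intron 1 in LIF-ESCs and of 2291 bp, reaching over exon 2, in Myc-ESCs. Rspo2 had a peak in intron 2 in both cultures. Lgr6 had 2 in both, in intron 1 and at exon 18. Lgr5 had 1 in Myc-ESCs, of 2353 bp in intron 1, with a score of 87.39. Rspo3, Rspo4 and Lrp5 had none outside the window in either culture.

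Lgr5 was also the gene of the set with a Polycomb domain inside its body. H3K27me3 was found over the body outside the window at 2 of 9 genes in LIF-ESCs (Rspo1 and Lgr5, 2.05% of all genes) but at 1 in Myc-ESCs (Lgr5, 5.6%). Suz12 was found there at 1 gene in each culture (Lgr5, 3.55% and 4.08%), with the shares again over genes of any length. This second domain lay over 100 kb from the start site, between introns 6 and 11. In it Suz12 had 8 peaks in each culture, over 3981 bases in LIF-ESCs but 2309 in Myc-ESCs. H3K27me3 had 3 peaks over 487 bases in LIF-ESCs but 10 over 1676 bases in Myc-ESCs. In the full lists, Suz12 thus covered fewer bases and H3K27me3 more in this domain in Myc-ESCs, whereas at the start site of Lgr5 both covered more. Over the gene from first to last base, LIF-ESCs had 3 H3K27me3 peaks and Myc-ESCs 16. With the Myc-ESC list cut to the length of the LIF-ESC list the numbers were 3 and 1, and for scores of 100 or more they were 0 and 1, so that the higher H3K27me3 count of Lgr5 in Myc-ESCs did not hold at equal length. The peak with a score of 130.13, in intron 8, was the only H3K27me3 peak of the 9 genes to reach 100.

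**Figure D3:**
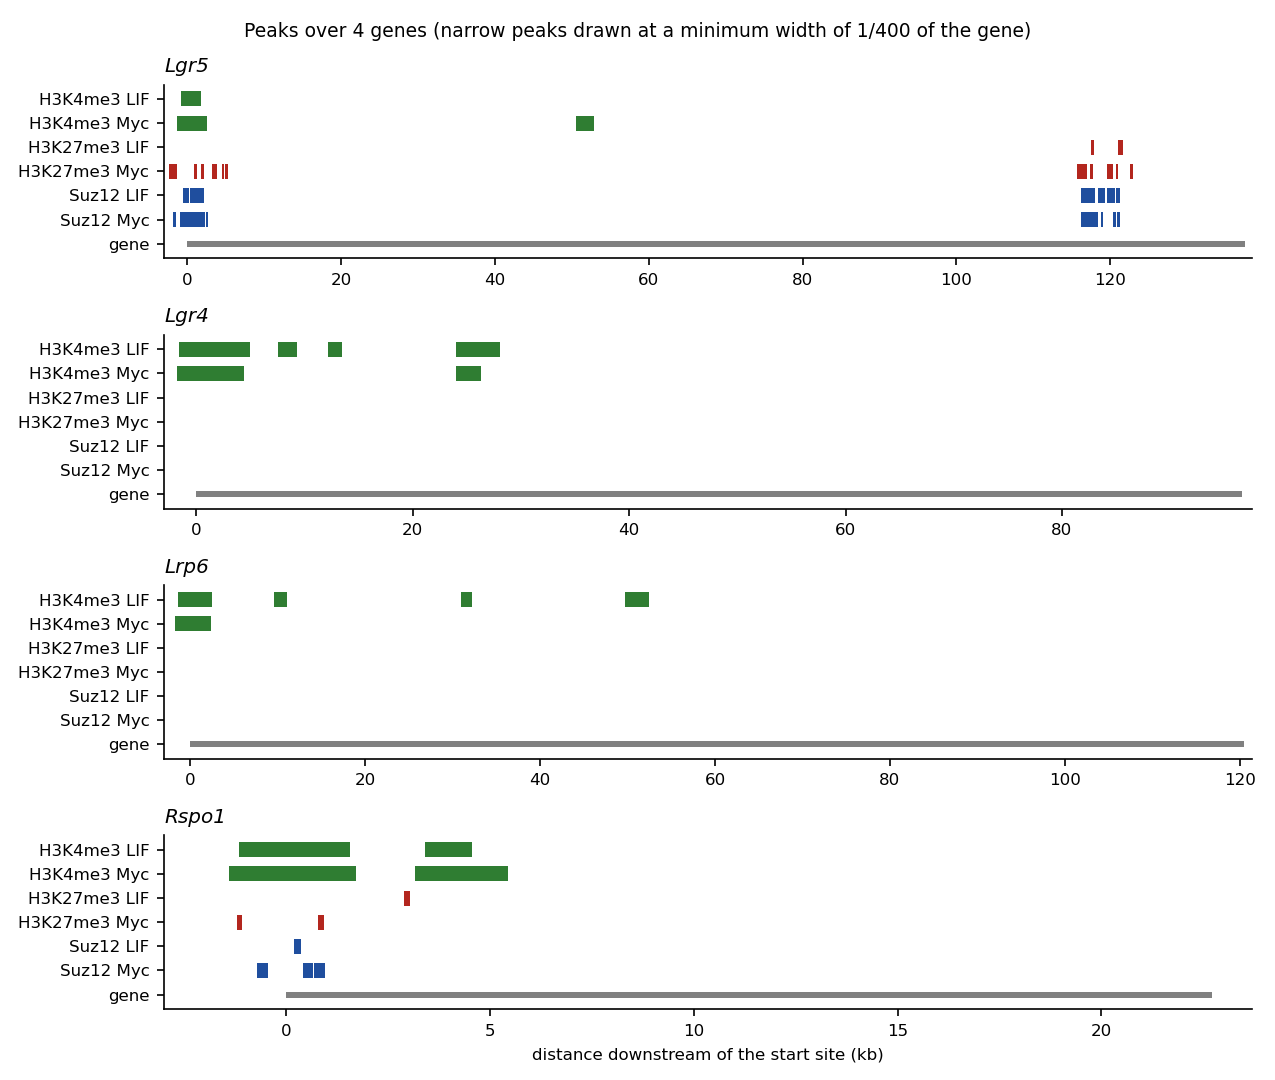
Peaks of the 6 lists (rows) along Lgr5, Lgr4, Lrp6 and Rspo1, as distance in kb downstream of the start site, with the gene as a grey line and narrow peaks drawn at a minimum width. Lgr5 has a domain of Suz12 and H3K27me3 over 100 kb from its start site, and the 3 H3K4me3 peaks inside Lrp6 in LIF-ESCs have no Myc-ESC counterpart.

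The partners and relatives of these proteins, 32 genes listed by function or family, gave a frame for the 9. H3K4me3 was at 27 in both cultures (62.2% and 63.3% of all genes). Suz12 was at 18 in LIF-ESCs and at 19 once Myc replaced LIF (12.1% and 14.6%), since 4 genes gained the call and 3 lost it. H3K27me3 was at 5 in LIF-ESCs but 13 in Myc-ESCs (3.82% and 10.7%), since 9 gained it and 1 lost it. Of the Myc-ESC calls, only those of Dkk1 (highest score 126.27), Fzd10 (152.54) and Vldlr (140.36) exceeded 103.8. That was the lowest Myc-ESC score kept with lists of equal length, where all LIF-ESC calls stayed. The higher H3K27me3 count in Myc-ESCs thus did not hold at equal length. The ligases that R-spondins act on went the other way from Lgr6 for Suz12. Znrf3 had 213 bases (score 65.79) in LIF-ESCs but 0 in Myc-ESCs, and Rnf43 had 131 bases (88.78) and 0. Both kept H3K4me3, over 4291 and 4058 bases at Znrf3 and 2003 and 2273 at Rnf43. H3K27me3 was called at Znrf3 in both cultures (155 and 152 bases) and at Rnf43 in Myc-ESCs only (152 bases).

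Around the co-receptors, Mesd, the chaperone that Lrp5 and Lrp6 need to reach the cell surface, had Suz12 in Myc-ESCs only (4 peaks, 1291 bases). Of the receptors for Dkk proteins, Kremen2 had H3K27me3 in Myc-ESCs only (124 bases) and Kremen1 in neither. The 5 inhibitory ligands of Lrp5 and Lrp6 (Dkk1, Dkk2, Dkk4, Sost and Sostdc1) had the same calls in both cultures. H3K4me3 was at 4 (62.2% and 63.3% of all genes), Suz12 at 3 (12.1% and 14.6%) and H3K27me3 at 1 (3.82% and 10.7%). Suz12 covered more bases in Myc-ESCs at Dkk1 (745 and 2573), Dkk2 (1433 and 1885) and Sost (271 and 538). Of 2822 genes with Suz12 in both cultures, 81.4% covered more. The H3K27me3 call was at Dkk1, over 141 and 770 bases. Of 10 Frizzled receptors, H3K27me3 was at 2 in LIF-ESCs but at 6 in Myc-ESCs, while H3K27me3 calls over all genes went from 3.82% to 10.7%. Of the 6, Fzd10 alone (score 152.54) exceeded 103.8, the lowest Myc-ESC score kept with lists of equal length. The next highest score was 87.83 at Fzd1. The higher count in Myc-ESCs thus did not hold at that length, where both LIF-ESC calls stayed. Suz12 was at 8 and 9 of the 10 Frizzled receptors, with the call gained at Fzd5 and Fzd10 and lost at Fzd7.

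Relatives by family differed from the 9 genes in part. Of 7 lipoprotein receptor relatives of Lrp5 and Lrp6, 7 had H3K4me3 in both cultures (62.2% and 63.3% of all genes) and 4 and 5 had Suz12 (12.1% and 14.6%). H3K27me3 (3.82% and 10.7%) was at 1 in LIF-ESCs (Lrp2, 347 bases), which had 0 bases in Myc-ESCs. It was at 2 others in Myc-ESCs only (Lrp1b with 190 bases and Vldlr with 1053). Their highest scores were 74.49 and 140.36, and the lowest Myc-ESC score kept with lists of equal length was 103.8. Of 5 hormone and relaxin receptors, which share the repeat structure of the Lgr proteins, 1 had H3K4me3, namely Tshr, the receptor for thyrotropin. H3K27me3 was called at Tshr in Myc-ESCs only, with a score of 51.88, near the lower end of the list.

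The genes whose start sites were most alike were found by adding up the differences in bases covered over the 6 lists. For Rspo1 they were Plekhd1 (400 bases in all) and Cerox1 (497), and for Rspo2 Grin3a (522) and Dmrta1 (553). For Rspo3 they were Doc2b and Gm12339 (793 each). For Lgr5 they were Adcy8 (825) and Dlx2 (1027), and for Lgr6 Cerk and Gm15569 (235 each). For the genes with H3K4me3 alone they were Gsr (5) and Kif1b (11) for Lgr4, and Anxa4 (7) and Nox4 (25) for Rspo4. Lrp5 had C530005A16Rik (9) and Pagr1a (14), and Lrp6 had Fam114a2 and Mfap3 (22 each). The smaller sums of these genes follow from the measure, since they had 0 bases in the H3K27me3 and Suz12 lists. There were also 13220 genes with H3K4me3 alone in LIF-ESCs to match them with. The genes of equal sum named for Rspo3, Lgr6 and Lrp6 lay on the same chromosome and had the same values in all 6 lists. They may therefore not be separate matches. The likeness rests on 6 values per gene and says nothing of function.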

How the data were processed

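Cultures and antibodies followed the labels, with 2 libraries behind each list. The authors sequenced on a HiSeq2000, aligned reads to GRCm38 with Bowtie2 2.2.3, kept unique best matches and called peaks with MACS 1.4.2 at default settings. They deposited 1 list per culture and antibody, and each deposited score is −10 times the log10 of the MACS p-value, so 50 stands for 1e-05. Whether libraries were pooled, and which MycER clone was used, is not given in the sources used here. The score depends on depth, which is unknown.

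A gene was called marked where a peak overlapped by at least 1 bp the 2500 bp on each side of a start site of its curated RefSeq transcripts (45754 transcripts, 26180 genes). Bodies ran from the first to the last base of the gene. Bases covered were counted in the same windows. Python 3.11.15, numpy 2.4.6, pysam 0.24.0 and matplotlib 3.10.9 were used, and the interval code was tested on simulated data. Positions count from 1. Named were all 9 genes, the lists of partners and relatives, and the 2 most similar genes of each. Genes and lists were chosen with earlier results of these data known. Expression and Myc binding were not analysed here, and the sequences of some peaks are not reported here.

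The alternatives were windows of 1000 and 5000 bp, peak midpoints, a score of at least 100, lists of equal length, the most upstream start site, predicted transcripts and, chosen after seeing the data, GENCODE M21 start sites.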

Additional observations from a re-analysis of the deposited data

How the results depend on the processing

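All 9 counts of genes with or gaining a mark at the start site were equal to their reported values under windows of 1000 bp, peak midpoints, the most upstream start sites, predicted transcripts and GENCODE start sites (chosen after seeing the data). With a score of at least 100, genes gaining H3K4me3 went from 1 to 0, genes with H3K27me3 in Myc-ESCs from 3 to 0, and genes gaining H3K27me3 from 3 to 0. With lists of equal length, genes with H3K27me3 in Myc-ESCs and genes gaining it were again 0, since the lowest Myc-ESC score kept was 103.8. With windows of 5000 bp, H3K27me3 in LIF-ESCs was called at 1 gene, Rspo1, and 2 genes gained it. At a score of at least 100 Suz12 was at 3 genes in LIF-ESCs (4 as reported) and at 4 in Myc-ESCs (5), and the number of genes gaining it stayed at 1, but the gene was Rspo1 instead of Lgr6. The order of H3K4me3 bases turned at Lgr4 and Lgr6 with windows of 5000 bp, and that of H3K27me3 peaks over Lgr5 (3 and 16) with lists of equal length (3 and 1). A limit on the score acts on lists of unknown depth, and the part of depth in these counts was not tested. No paired analysis was possible because each culture and antibody has 1 list without replicates, and no library could be left out for the same reason.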
